A study of Mus musculus with 21 samples.

Results

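Adenylyl cyclases make the second messenger cAMP from ATP, and cyclic nucleotide phosphodiesterases break it down. The 10 genes described here were matched by symbol in a count table of 23713 genes. Of these, 4 encode adenylyl cyclases (Adcy3, Adcy6, Adcy7 and Adcy9) and 6 encode phosphodiesterases that hydrolyse cAMP (Pde3b, Pde4a, Pde4b, Pde4d, Pde7a and Pde8a). All 10 were found. RNA came from tail skin keratinocytes of mouse models of basal cell carcinoma, a tumour driven by Hedgehog signalling. The 3 models are labelled SmoM2 (taken 29 days after tumour induction), Gnas-eKO (42 days) and PKI (57 days). Each has 3 libraries of control mice with tumour-free epidermis (Con) and 4 libraries of tumour-bearing mice (BCC), which makes 21 libraries.

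SmoM2 is the name of an activated form of the Hedgehog receptor component Smoothened. Gnas is the gene of the stimulatory G protein's alpha subunit, which switches adenylyl cyclases on, and PKI is the usual name of the peptide inhibitors of protein kinase A. The labels do not spell out the alleles, the promoters that drive them, the inducing agent, or the genotype, strain and age of the control mice. Each model is also its own batch (A, B or C) and its own day, so model, batch and day cannot be told apart, and BCC was compared with Con within a model. Each column name holds a code of its own, which differs for every library. In SmoM2 the codes of BCC libraries begin differently from those of Con libraries; what this marks is not stated, and it cannot be told apart from the tumour. Whether a code stands for 1 mouse or a pool is not stated, so the p-values measure the spread between these libraries.

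In the epidermis, cAMP is raised by receptors that couple to the stimulatory G protein. It activates protein kinase A, which restrains Hedgehog signalling by promoting the processing of GLI transcription factors into repressors. The membrane-bound cyclases differ in what else they respond to: Adcy6 is inhibited by calcium and by inhibitory G proteins, Adcy7 is enhanced by G protein beta-gamma subunits, and Adcy3 is known for its place in primary cilia. The phosphodiesterases of the PDE4, PDE7 and PDE8 families are specific for cAMP, whereas PDE3 enzymes are inhibited by cGMP.

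Library totals ranged from 16645858 to 22251132 counts. Gnas stood at 178, 174 and 172 CPM (counts scaled to a fixed library size) in the Gnas-eKO Con libraries and at 115, 89.5, 51.1 and 65.6 CPM in the BCC libraries, with no overlap, so transcript was still measured in each. The summed level of 8 keratinocyte markers lay between 30226 and 76762 CPM in every library; 6 of the 8 were called lower and 1 higher in SmoM2 tumours, 3 lower and 1 higher in PKI, and 0 in Gnas-eKO by edgeR, with median log2 fold changes of -0.51, -0.23 and -0.61. Over all genes, 13.5% were called lower and 16.2% higher in SmoM2, 15.8% and 18.7% in PKI, and 0.165% and 1.46% in Gnas-eKO. The part of these markers in the changes of the members was not tested. On the leading principal component of 17695 genes, which held 30.2% of the variance, Con libraries scored from -57.2 to -40.4 and BCC libraries from 32.4 to 59.4, except Gnas-eKO BCC replicate 2 at -20.4. That library stands apart from its group, and the tests of the members within Gnas-eKO are given with and without it. It was singled out from these same data for lying towards Con, so a fit without it leans towards larger changes. Such fits are therefore a description. Its Gnas level of 89.5 CPM was below that of BCC replicate 1 at 115 CPM.

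Per length of exon, the members fell into a wide range of levels. In Con libraries the group means of Adcy3, Adcy6 and Pde8a were highest, from 5.95 CPM per kb (Adcy6, Gnas-eKO) to 8.51 CPM per kb (Adcy3, Gnas-eKO). Adcy9 and Pde7a followed at 4.58 to 5.33 CPM per kb, and Pde4b at 2.12 to 2.64 CPM per kb. Neighbours among the leading 5 genes mostly overlapped between libraries, so their order is not fixed by these data. Adcy7 was lower, at 0.668 to 0.91 CPM per kb. Below it came Pde4d at 0.167 to 0.269 CPM per kb, Pde4a at 0.0578 to 0.105 CPM per kb and Pde3b at 0.015 to 0.0376 CPM per kb. Within the SmoM2 and Gnas-eKO Con groups, Pde4b, Adcy7, Pde4d, Pde4a and Pde3b kept this order with no overlap between neighbours. Exon length here is the union over all annotated transcripts, which counts unused exons too and so lowers the level of genes with many isoforms such as Pde4d.

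**Figure D1:**
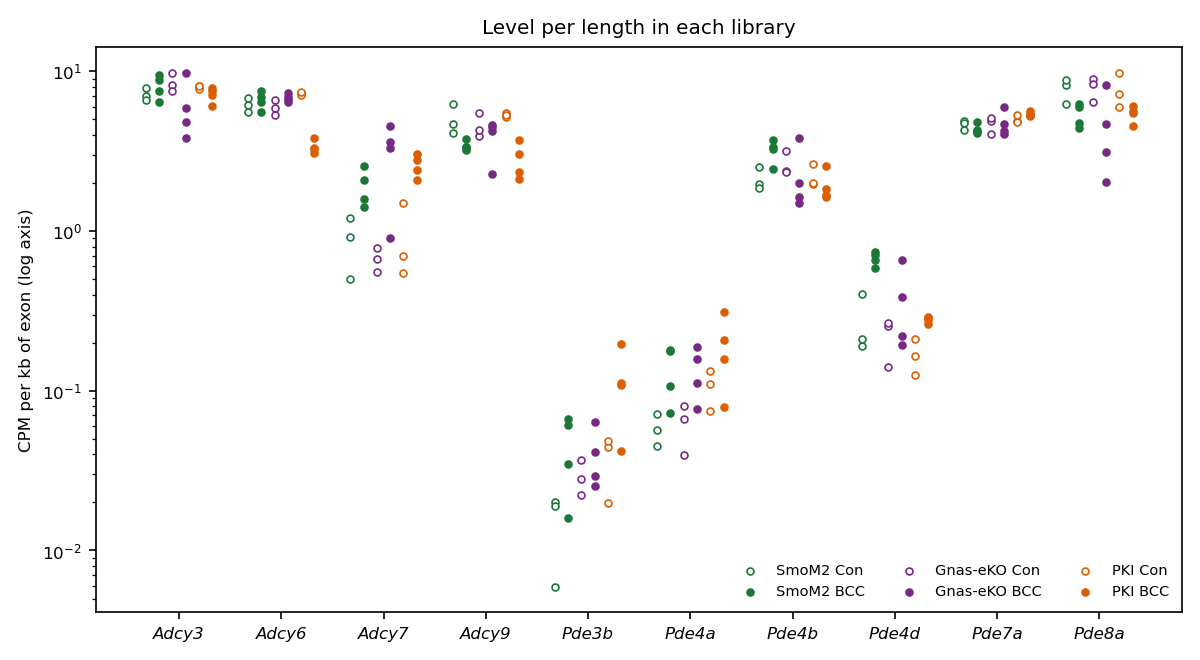
Level of each gene per kb of exon (CPM per kb, log axis) in each of the 21 libraries; open points are Con and filled points BCC, coloured by model. In Con libraries Adcy3, Adcy6 and Pde8a have the highest group means and Pde3b and Pde4a the lowest; in PKI BCC, Adcy6 (3.38 CPM per kb) lies below Pde7a (5.4 CPM per kb), and Adcy7 is higher in BCC.

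The cAMP response element is the site to which CREB factors bind, so the start regions of the members were searched for its 5-base core TGACG. RefSeq promoter entries (build GRCm38.p6) were at hand for 7 of the 10 genes, with 15 entries in all; Adcy6, Pde3b and Pde7a had none. In the 250 bases before the start site, the core was found on either strand in 5 of the 15 entries, 1 each of 5 genes, against 17.8% of 32851 promoters of the same length. The whole site TGACGTCA, which contains the core, was in none of the 15 entries and in 1.55% of all promoters. The GLI consensus GACCACCCA was also in none, against 0.225% of all. The windows of 29 bases around the core are shown because they allow the genes that rose (Adcy7, Pde4b) and fell (Adcy9, Pde8a) to be set side by side; capitals mark the core, read 5′ to 3′ on the gene's strand, where CGTCA is the core on the other strand.
Adcy7, chr8:88282952-88282980, plus strand: tgatcatagagcCGTCAggggggtggggc
Adcy9, chr16:4420506-4420534, minus strand: cggacccggcggTGACGtgcgcgggccgc
Pde4a, chr9:21184039-21184067, plus strand: ggcacagctcgaCGTCAggctggggagga
Pde4b, chr4:102421509-102421537, plus strand: gatttggctgcaCGTCAattttctcatct
Pde8a, chr7:81213169-81213197, plus strand: gctgctttgcatTGACGccagcagccgct
The match lies 28 bases before the start site of its entry in Adcy7, 24 in Adcy9, 50 in Pde4a, 34 in Pde4b and 84 in Pde8a. Adcy7, Pde4a and Pde4b also have entries at other start sites, and those hold no match. Genes that rose and genes that fell both carry it. Pde4d, which also rose, has 1 entry with no match, and neither of the 2 entries of Adcy3 holds one. A match describes the letters only.

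Changes in the tumours went both ways among the members. In SmoM2, 9 members had enough counts to be tested and 5 were called (edgeR's quasi-likelihood test, Benjamini-Hochberg adjusted p under 0.05), 3 higher and 2 lower, against 29.7% of all genes tested (16.2% higher, 13.5% lower). A joint fit of all 21 libraries left 1 of these calls, Pde4d. In PKI all 10 were tested and 5 were called, 2 higher and 3 lower, against 34.5% of all genes (18.7% higher, 15.8% lower). In Gnas-eKO none of 9 was called, against 1.63% of all genes (1.46% higher, 0.165% lower), while 2 had an unadjusted p under 0.05, and DESeq2 called 1. Without BCC replicate 2 the Gnas-eKO count was 3, against 11.8% of all genes (7.36% higher, 4.43% lower). The members then called were Adcy7 (higher), Adcy3 and Pde8a (lower), a description only, as that library was left out for lying towards Con. The other 6 tested there remained uncalled: Adcy6 was at 0.24 (SE 0.12, edgeR adjusted p = 0.257), Adcy9 at -0.31 (SE 0.27, 0.52), Pde4a at 1.19 (SE 0.49, 0.174), Pde4b at -0.17 (SE 0.36, 0.804), Pde4d at 0.92 (SE 0.47, 0.261) and Pde7a at 0.09 (SE 0.18, 0.8). Over the tested members with all libraries, the median log2 fold change was 0.18 (SmoM2), 0.03 (Gnas-eKO) and -0.01 (PKI), beside 0.00, 0.02 and -0.00 over all genes.

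**Figure D2:**
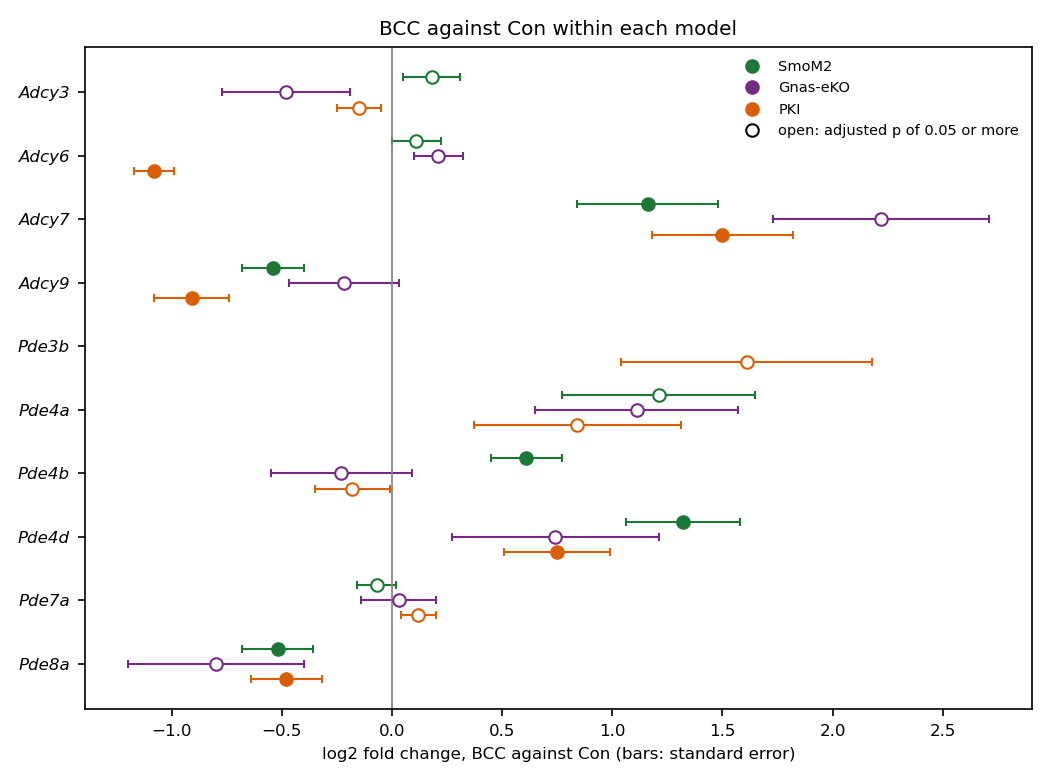
Log2 fold change of BCC against Con (horizontal axis) with its standard error for each gene within SmoM2, Gnas-eKO and PKI; filled points have an adjusted p under 0.05. Adcy6 is lower in PKI by 1.08 on the log2 scale and lies near 0 in the other models, while Adcy7 lies to the right of 0 in all 3.

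Adcy6 (ENSMUSG00000022994.9, chr15:98589973-98610076, minus strand, GRCm38) changed in PKI tumours. It stood at 49.3, 47.9 and 50.1 CPM in PKI Con and at 22.1, 22.6, 26.1 and 21.0 CPM in PKI BCC. Every BCC library lay below every Con library. The fold was 0.471 (log2 fold change -1.08, SE 0.09, edgeR adjusted p = 0.000106), and 0.5% of tested genes had a smaller p. The call held with each of the 7 libraries left out, with values from -1.15 to -1.04.

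In SmoM2, Adcy6 stood at 46.3, 37.6 and 41.4 CPM in Con and at 43.8, 50.8, 37.5 and 46.5 CPM in BCC. The groups overlapped (log2 fold change 0.11, SE 0.11, edgeR adjusted p = 0.516). Gnas-eKO gave 39.8, 36.3 and 45.1 CPM in Con and 46.8, 43.7, 49.8 and 45.5 CPM in BCC, which also overlapped (0.21, SE 0.11, edgeR adjusted p = 0.348). The difference between models was tested directly: the Adcy6 effect in PKI was lower than in SmoM2 by a log2 difference of -1.19 (SE 0.15, edgeR adjusted p = 0.000107) and lower than in Gnas-eKO by -1.30 (SE 0.14, edgeR adjusted p = 0.0007). Between Gnas-eKO and SmoM2 the difference was 0.11 (SE 0.16, edgeR adjusted p = 0.877). Over the 6 groups, the PKI BCC mean of 22.9 ± 2.19 CPM (SD, n = 4) was the lowest and stood apart from the next, Gnas-eKO Con at 40.4 ± 4.43 CPM (SD, n = 3), whereas the other 5 groups overlapped with their neighbours up to PKI Con at 49.1 ± 1.13 CPM (SD, n = 3).

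Adcy7 (ENSMUSG00000031659.13, chr8:88272403-88329962, plus strand), a cyclase best known from blood and immune cells, was higher in tumours. In PKI it stood at 10.0, 3.66 and 4.68 CPM in Con and at 20.3, 16.3, 14.1 and 18.7 CPM in BCC. No BCC library overlapped with Con. It rose 2.83-fold (log2 fold change 1.50, SE 0.32, edgeR adjusted p = 0.00868). In SmoM2 the values were 3.35, 6.14 and 8.11 CPM in Con and 10.6, 9.56, 17.3 and 14.1 CPM in BCC, again without overlap. Here it rose 2.23-fold (1.16, SE 0.32, edgeR adjusted p = 0.0264), a call lost without Con replicate 2 (adjusted p = 0.0779) or BCC replicate 4 (adjusted p = 0.0592).

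In Gnas-eKO, Adcy7 stood at 4.51, 5.25 and 3.73 CPM in Con and at 30.4, 6.06, 22.3 and 24.4 CPM in BCC. Replicate 2, the library that stands apart, was just above the highest Con library and the other 3 BCC libraries were far above. Its change of 2.22 on the log2 scale (SE 0.49, edgeR adjusted p = 0.063) misses the threshold; without BCC replicate 2 it was 2.53 (edgeR adjusted p = 0.000584), and the call was also made by DESeq2 with all libraries (adjusted p = 7.89e-05). No difference between the models' Adcy7 effects passed the test, at 1.07 (SE 0.62) for Gnas-eKO against SmoM2, 0.34 (SE 0.49) for PKI against SmoM2 and -0.71 (SE 0.62) for PKI against Gnas-eKO. Without BCC replicate 2, the differences that involve Gnas-eKO were 1.37 (SE 0.40, edgeR adjusted p = 0.177) from SmoM2 and -1.02 (SE 0.40, edgeR adjusted p = 0.117) for PKI.

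Markers of other cell types also differed between Con and BCC, by list and model. Over all genes, 16.2% were called higher and 13.5% lower in SmoM2, 18.7% and 15.8% in PKI, and 1.46% and 0.165% in Gnas-eKO. In PKI 7 of 9 macrophage and dendritic cell markers were higher in BCC, their summed level going from 53.5 to 149 CPM in Con to between 336 and 672 CPM in BCC. In Con libraries of PKI, Adgre1 was at 0 in 2 libraries and Lyz2 in 1. The same sum for SmoM2 was 96.9 to 123 CPM (Con) and 72.8 to 139 CPM (BCC), which overlapped. For Gnas-eKO the sum was 118 to 157 CPM in Con and 123 to 352 CPM in BCC. The 8 T cell markers, in sum mostly Thy1 in each group, came to 27.7 to 53.7 CPM in PKI Con and 43 to 90.1 CPM in PKI BCC (5 higher), to 108 to 139 and 46.9 to 60.6 CPM in SmoM2, and to 132 to 140 and 29.1 to 101 CPM in Gnas-eKO. Thy1 alone averaged 121 CPM (Con) and 50.9 CPM (BCC) for SmoM2. The T cell receptor gene Trac went the other way there, from 0.355 to 1.44 CPM on average (log2 fold change 2.03, SE 0.39, adjusted p = 0.00377), and from 0.185 to 4.22 CPM in PKI. Without regard to level, the median log2 fold change of the T cell markers tested was 0.25 for SmoM2 (1 higher and 1 lower of 5), 0.47 for Gnas-eKO (0 of 6 called by edgeR) and 1.26 for PKI (5 higher of 7). Of macrophage and dendritic cell markers, 1 was higher and 1 lower of 8 tested in SmoM2, and 0 of 8 passed in Gnas-eKO by edgeR. The 6 fibroblast markers were higher in sum in all models: 17.2 to 39.8 CPM (Con) against 387 to 525 CPM (BCC) for SmoM2, 15.9 to 27.4 against 94.3 to 579 CPM for Gnas-eKO, and 15.8 to 43.5 against 84.4 to 145 CPM for PKI, with 2, 1 and 3 of the 6 called higher. Dcn made up most of these sums, at means of 21 and 440 CPM (SmoM2), 14.8 and 247 CPM (Gnas-eKO) and 18.5 and 88.4 CPM (PKI). The collagen gene Col3a1 averaged 2.7 and 2.53 CPM in SmoM2, 2.16 and 13 CPM in Gnas-eKO, and 2.44 and 7.52 CPM in PKI. Melanocyte markers summed to 169 to 220 CPM in PKI Con and 83.3 to 133 CPM in PKI BCC, where 5 of 7 were lower. For SmoM2 they came to 133 to 222 CPM and 126 to 182 CPM, with 2 of 7 lower (median log2 fold change -0.29), and for Gnas-eKO to 125 to 194 CPM and 139 to 225 CPM, with 0 of 7 called by edgeR (median 0.34). Endothelial markers summed to at most 6.88 CPM in any library, yet 2 of 3 tested were higher in SmoM2 and 1 of 2 in PKI. Neutrophil markers summed to at most 12.6 CPM, and the 1 that was tested, Cxcr2, was higher in PKI (log2 fold change 1.91, SE 0.42, adjusted p = 0.00887; means 2.23 and 8.28 CPM). Mast cell markers summed to at most 0.107 CPM. Trac and several other scarce markers passed the filter only through BCC, where they are high, so that their calls are descriptions of level only. Their part in the changes of Adcy7 and of the other members was not tested. In bulk RNA, more cells of a type and more transcript per cell cannot be told apart.

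Adcy9 (ENSMUSG00000005580.11, chr16:4287529-4420498, minus strand), a cyclase weakly responsive to forskolin, fell in 2 models. In PKI it stood at 27.1, 28.4 and 27.6 CPM in Con and at 11.0, 12.2, 15.8 and 19.3 CPM in BCC. All BCC libraries were below all Con libraries. The fold was 0.531 (log2 fold change -0.91, SE 0.17, edgeR adjusted p = 0.00401), and the call held with each library left out. In SmoM2 it stood at 32.4, 21.3 and 24.3 CPM in Con and at 16.6, 17.5, 17.5 and 19.5 CPM in BCC. Those groups did not overlap either, and the fold was 0.69 (-0.54, SE 0.14, edgeR adjusted p = 0.0164); without BCC replicate 1 the adjusted p was 0.0505, and without Con replicate 1 the change was -0.35 with the call kept.

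In Gnas-eKO, Adcy9 stood at 20.5, 22.3 and 28.6 CPM in Con and at 23.2, 24, 11.8 and 22 CPM in BCC. A single BCC library, replicate 3, was low and the other 3 lay within the Con range (-0.22, SE 0.25, edgeR adjusted p = 0.678). A processed pseudogene, Gm6142, lies within Adcy9 on the same strand and is also counted, so its reads could be shared with it.

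Adcy3 (ENSMUSG00000020654.15, chr12:4133103-4213525, plus strand) was not called in any model with all libraries. It stood at 60.9, 51.2 and 47.3 CPM in Gnas-eKO Con and at 30.1, 60.8, 23.8 and 36.8 CPM in BCC. The BCC library at 60.8 CPM is replicate 2, and the other 3 lay below all Con libraries. On the log2 scale the change was -0.48 (SE 0.29, edgeR adjusted p = 0.398) with all libraries and -0.80 (edgeR adjusted p = 0.0318) without replicate 2. In SmoM2 it stood at 44.0, 48.9 and 41.5 CPM in Con against 54.9, 59.2, 40.0 and 47.1 CPM in BCC (0.18, SE 0.13, adjusted p = 0.341). PKI gave 50.8, 48.7 and 50.2 CPM against 44.1, 38.1, 46.7 and 49.4 CPM (-0.15, SE 0.10, adjusted p = 0.25). Both pairs of groups overlapped. Cenpo lies on the opposite strand across part of Adcy3, and whether counting used the strand is not stated, so reads of the overlap cannot be told apart.

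The make-up of the cyclase pool, as a share of the 4 genes' summed CPM per kb, followed from these changes and is given as a description. Adcy7 went from 4.2% ± 2.23 (SD, n = 3) in PKI Con to 16.3% ± 2.84 (SD, n = 4) in PKI BCC, from 3.41% ± 0.734 to 15.9% ± 7.99 in Gnas-eKO and from 4.61% ± 2.05 to 9.78% ± 3.46 in SmoM2. Adcy6 went from 33.7% ± 0.768 to 21.4% ± 2.7 in PKI. The sum itself was 21.5 ± 0.614 CPM per kb in PKI Con and 15.9 ± 1.4 CPM per kb in PKI BCC, while it was 19.2 ± 1.22 and 20 ± 1.6 CPM per kb in SmoM2 and 19.7 ± 0.947 and 19.9 ± 2.18 CPM per kb in Gnas-eKO.

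**Figure D3:**
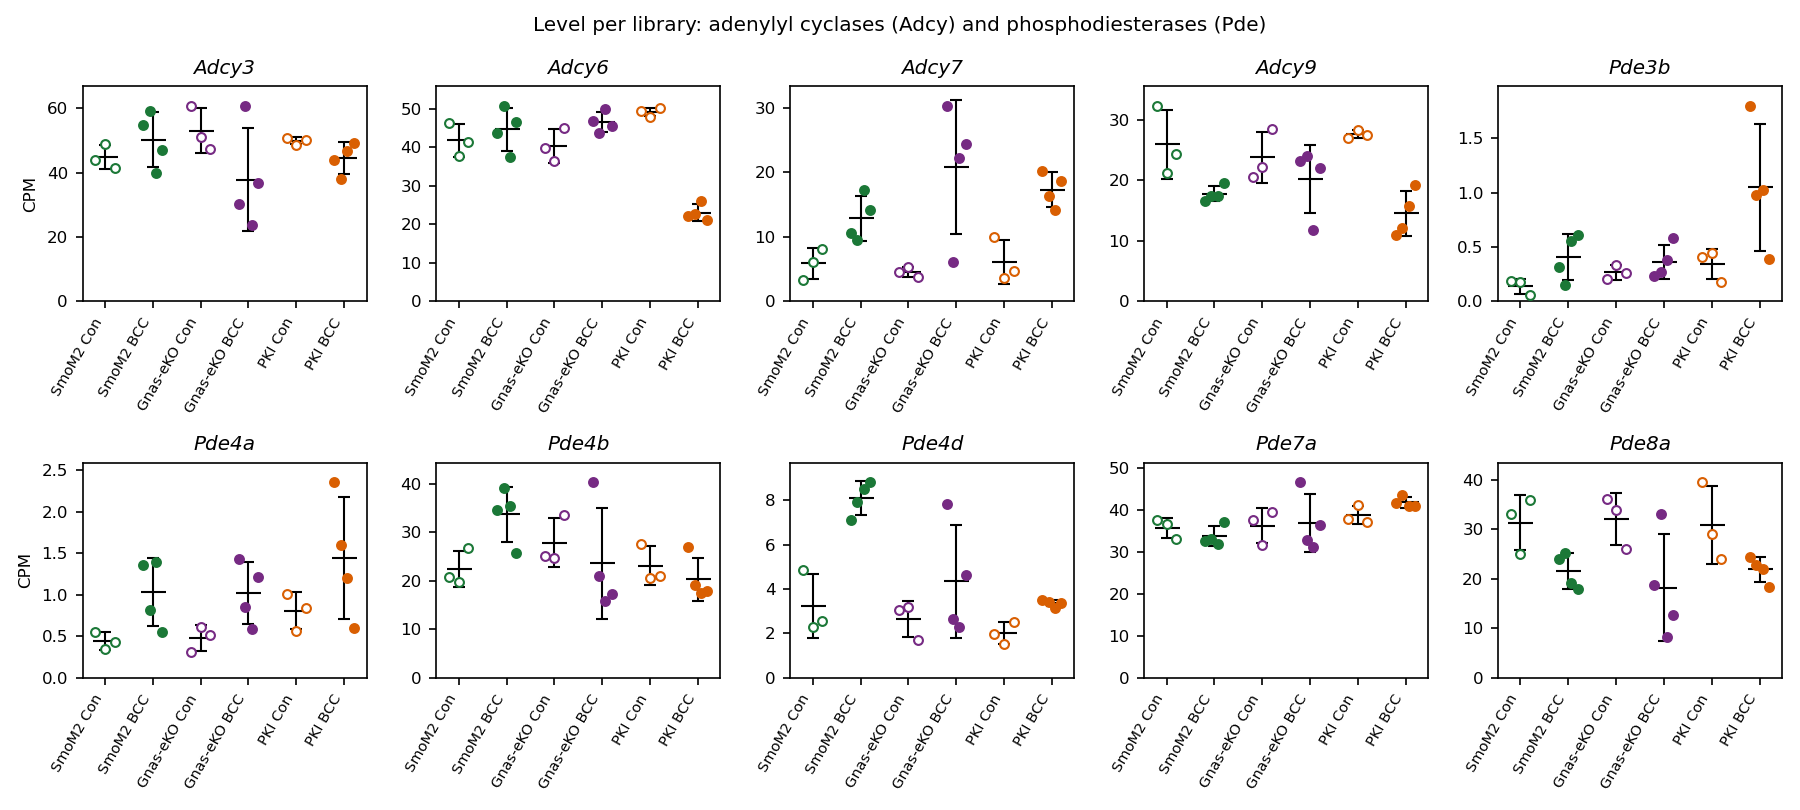
CPM of each gene (vertical axes from 0) in each library of the 6 groups; open points are Con, filled points BCC, and bars show the mean and SD. Adcy6 in PKI BCC lies between 21.0 and 26.1 CPM, below the 47.9 to 50.1 CPM of PKI Con, and Adcy7 is higher in the BCC groups.

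Among the phosphodiesterases, Pde4d (ENSMUSG00000021699.17, chr13:108449948-109953461, plus strand) rose in SmoM2. This long gene, with 20 annotated transcripts of which 12 are coding, gives short and long PDE4 isoforms that a gene count does not separate. It stood at 4.87, 2.29 and 2.54 CPM in SmoM2 Con and at 7.1, 7.92, 8.52 and 8.82 CPM in BCC. The groups did not overlap, and the gene rose 2.5-fold (log2 fold change 1.32, SE 0.26, edgeR adjusted p = 0.00389), a call kept with each library left out. In PKI it stood at 1.98, 1.52 and 2.52 CPM in Con and at 3.49, 3.41, 3.16 and 3.35 CPM in BCC, again without overlap and with a narrow BCC spread. The 1.68-fold rise there (0.75, SE 0.24, edgeR adjusted p = 0.0369) rests on few counts (24 to 42 in Con), and leaving out any library except Con replicate 3 ended the call (adjusted p up to 0.119). In Gnas-eKO it stood at 3.04, 3.18 and 1.69 CPM in Con and at 7.85, 2.63, 2.3 and 4.64 CPM in BCC, which overlapped (0.74, SE 0.47, edgeR adjusted p = 0.434). Rps3a3, a processed pseudogene, lies within Pde4d on the same strand and is also counted.

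Pde4b (ENSMUSG00000028525.16, chr4:102087543-102607259, plus strand), a PDE4 enzyme known from inflammatory cells, rose in SmoM2. It stood at 20.8, 19.7 and 26.7 CPM in Con and at 34.6, 39.2, 35.4 and 25.7 CPM in BCC. Only BCC replicate 4 fell within the Con range. The rise was 1.52-fold (log2 fold change 0.61, SE 0.16, edgeR adjusted p = 0.0173), and it missed the threshold without Con replicate 1 (adjusted p = 0.0585) or Con replicate 2 (adjusted p = 0.0743). PKI libraries stood at 27.7, 20.6 and 21.1 CPM in Con and at 26.9, 19.2, 17.4 and 17.8 CPM in BCC, which overlapped (-0.18, SE 0.17, edgeR adjusted p = 0.459). In Gnas-eKO it stood at 25.1, 24.8 and 33.7 CPM in Con and at 40.4, 21.0, 15.8 and 17.2 CPM in BCC. There BCC replicate 1 was the highest of the 7 libraries and the other 3 BCC libraries the lowest (-0.23, SE 0.32, edgeR adjusted p = 0.755).

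The Pde4b effect in PKI was lower than that in SmoM2 by a log2 difference of -0.78 (SE 0.25, edgeR adjusted p = 0.0365). That call was lost in 9 of the 14 fits that leave out 1 library (adjusted p up to 0.0992). With Adcy6 it makes 2 of 10 members called for PKI against SmoM2, both lower, where 24.9% of all genes were called (12.6% higher, 12.3% lower). For PKI against Gnas-eKO, Adcy6 alone was called, as lower, against 9.06% of all genes (4.49% higher, 4.57% lower). No member was called for Gnas-eKO against SmoM2 by edgeR, DESeq2 or the other fits, none had an unadjusted p under 0.05 in edgeR, and 0.175% of all genes were called (0.0758% higher, 0.0991% lower). Without Gnas-eKO BCC replicate 2, the Adcy6 difference from PKI was -1.32 (SE 0.14, edgeR adjusted p = 0.000301) and again the 1 member called, and no member was called against SmoM2, where Adcy3 came nearest (-0.98, SE 0.24, edgeR adjusted p = 0.0989); for PKI against Gnas-eKO, Adcy3 was then at 0.65 (SE 0.20, edgeR adjusted p = 0.0537). The PKI differences share the PKI libraries, so they are not independent of each other.

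**Figure D4:**
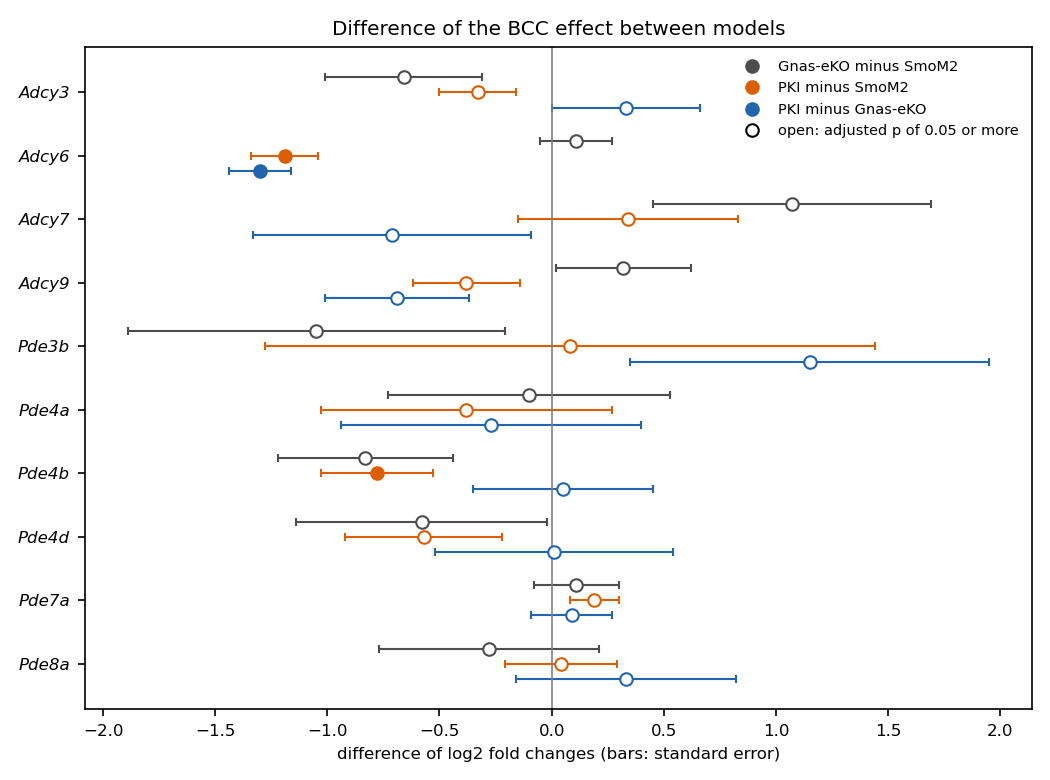
Difference of the log2 fold changes of BCC against Con between models (horizontal axis) with its standard error; filled points have an adjusted p under 0.05. Adcy6 is at -1.19 for PKI against SmoM2 and -1.30 for PKI against Gnas-eKO, and Pde4b is at -0.78 for PKI against SmoM2.

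Pde4a (ENSMUSG00000032177.17, chr9:21165714-21213248, plus strand) was scarce, at 6 to 46 counts per library. In SmoM2 it stood at 0.551, 0.344 and 0.433 CPM in Con and at 1.36, 0.821, 1.39 and 0.554 CPM in BCC. The groups narrowly did not overlap, but the change missed the threshold (log2 fold change 1.21, SE 0.44, edgeR adjusted p = 0.0621), and without BCC replicate 4 it passed (1.42, adjusted p = 0.0313). In Gnas-eKO it stood at 0.304, 0.615 and 0.511 CPM against 1.43, 0.858, 0.589 and 1.21 CPM (1.11, SE 0.46, adjusted p = 0.231), and in PKI at 1.01, 0.568 and 0.841 CPM against 2.36, 1.6, 1.2 and 0.603 CPM (0.84, SE 0.47, adjusted p = 0.197). Both overlapped. In SmoM2 and Gnas-eKO it passed the filter only through BCC, where it was higher, so its values there are a description.

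Pde3b (ENSMUSG00000030671.9, chr7:114415281-114539251, plus strand), the phosphodiesterase known for its role in fat and liver cells, was near the limit of counting. At these depths, 3 counts correspond to at most 0.189 CPM, and the SmoM2 libraries held 1 to 4 Pde3b counts in Con against 3 to 12 in BCC, and those of Gnas-eKO held 4 to 6 against 5 to 12. Pde3b failed the filter on low counts in those models and was not tested. In PKI it stood at 0.405, 0.442 and 0.18 CPM in Con and at 1.8, 0.981, 1.02 and 0.384 CPM in BCC. Only BCC replicate 4 overlapped with Con, and the change was 1.61 on the log2 scale (SE 0.57, edgeR adjusted p = 0.0548). DESeq2 (adjusted p = 0.0471) and the fit without BCC replicate 4 (1.87, adjusted p = 0.0165) put it past the threshold. Since PKI BCC was the group in which it was highest, it passed the filter through that group.

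Pde8a (ENSMUSG00000025584.17, chr7:81213596-81334533, plus strand), a phosphodiesterase with high affinity for cAMP, fell in 2 models. In SmoM2 it stood at 33.2, 25.1 and 35.9 CPM in Con and at 24.1, 25.2, 19.2 and 17.9 CPM in BCC. A single BCC library lay just above the lowest Con library. The fold was 0.696 (log2 fold change -0.52, SE 0.16, edgeR adjusted p = 0.0318). PKI libraries stood at 39.6, 29.0 and 24.1 CPM in Con and at 24.5, 22.8, 22.1 and 18.4 CPM in BCC, with the same narrow overlap. There the fold was 0.717 (-0.48, SE 0.16, edgeR adjusted p = 0.0478). Leaving out 1 library ended the SmoM2 call in 4 of 7 fits (Con replicates 1 and 3, BCC replicates 3 and 4) and the PKI call in 5 of 7 (all but Con replicate 3 and BCC replicate 1), where the change went down to -0.27 without Con replicate 1.

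In Gnas-eKO, Pde8a stood at 36.1, 33.9 and 26.1 CPM in Con and at 18.8, 33.2, 8.19 and 12.7 CPM in BCC. Replicate 2 lay within the Con range and the other 3 below it. Its log2 fold change came to -0.80 (SE 0.40, edgeR adjusted p = 0.316), and -1.26 (edgeR adjusted p = 0.0318) without replicate 2.

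Pde7a (ENSMUSG00000069094.12, chr3:19223108-19311322, minus strand) moved by at most 0.12 on the log2 scale, and no model called it. In SmoM2 it stood at 37.6, 36.6 and 33.1 CPM in Con and at 32.6, 33.2, 31.9 and 37.2 CPM in BCC (log2 fold change -0.07, SE 0.09). In Gnas-eKO it stood at 37.6, 31.6 and 39.6 CPM against 46.7, 32.9, 31.3 and 36.4 CPM (0.03, SE 0.17), and in PKI at 37.9, 41.2 and 37.2 CPM against 41.7, 43.6, 41.1 and 40.9 CPM (0.12, SE 0.08). The groups overlapped in each model, with edgeR adjusted p of 0.586, 0.936 and 0.252.

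Members whose BCC and Con libraries did not overlap were 4 of 9 tested in SmoM2 (Adcy7, Pde4a and Pde4d above, Adcy9 below), against 38.8% of all genes tested there (19.6% above, 19.2% below). Pde4a passed the filter there only through BCC, where it was higher, so its place in this count is a description. Such members were 1 of 9 tested in Gnas-eKO (Adcy7 above), against 19.7% (9.98% above, 9.7% below), and 4 of 10 in PKI (Adcy7 and Pde4d above, Adcy6 and Adcy9 below), against 43.2% (22.4% above, 20.8% below). In Gnas-eKO, BCC replicate 2 alone overlapped with Con for Adcy3 and Pde8a (others below) and Adcy6 (others above). The share of all genes apart without that library was not computed. Of the 10 members, Adcy7 alone had groups apart in all 3 models. The share of all genes apart in all 3 was not computed, so this describes levels only.

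**Figure D5:**
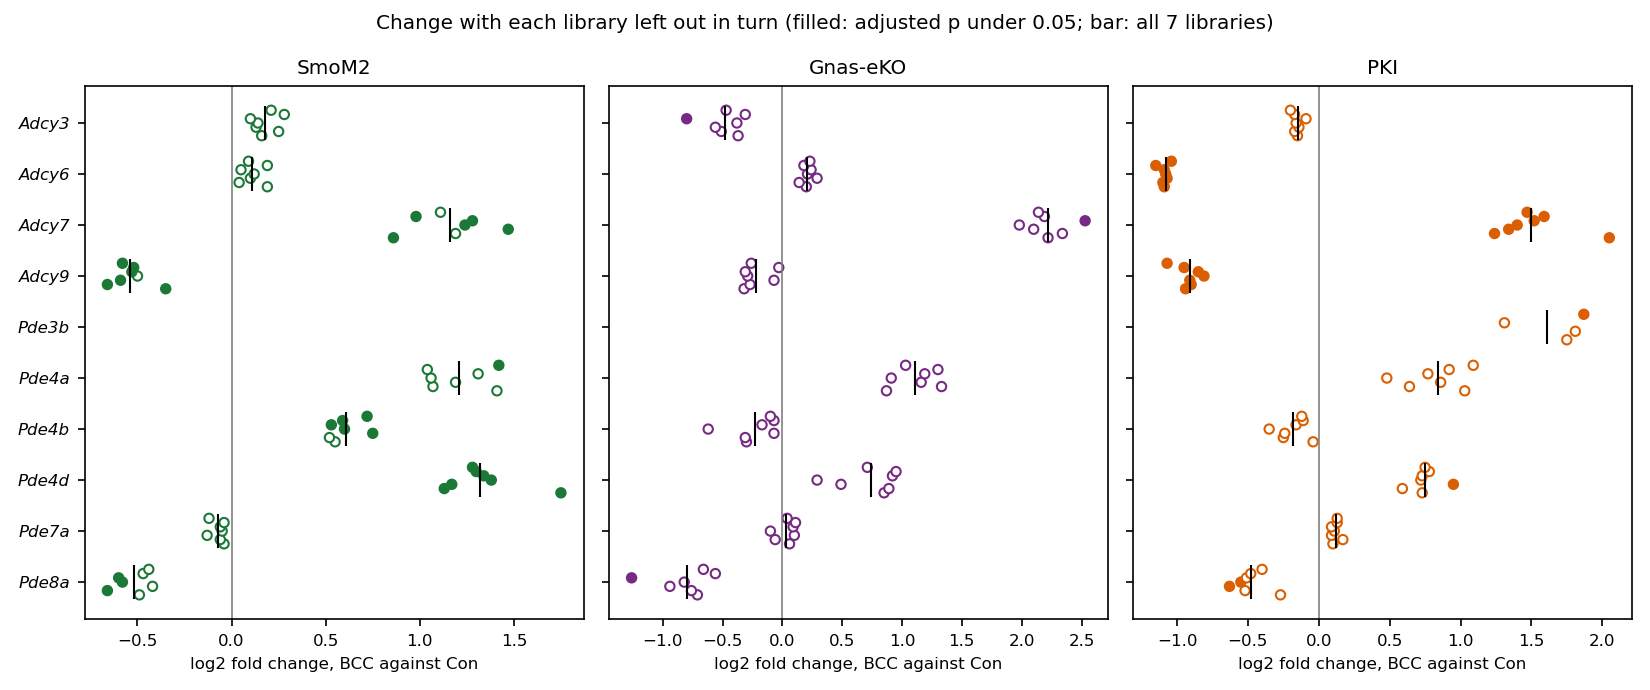
Log2 fold change of BCC against Con with each of the 7 libraries left out in turn (points, filled where the adjusted p is under 0.05) and with all libraries (bars), for each gene and model. Adcy6 and Adcy9 in PKI and Pde4d in SmoM2 are filled throughout, and in Gnas-eKO the filled points of Adcy3, Adcy7 and Pde8a are those without BCC replicate 2.

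The nearest pattern to each member was sought among 12023 genes as Pearson's r of log2 CPM over the 21 libraries, which share models and tumour state. The closest genes were Trim3 for Adcy6 (r = 0.94), Dbn1 for Adcy7 (0.96), Tmppe for Adcy9 (0.91) and Gna14 for Adcy3 (0.86). Among phosphodiesterases they were Gtf2ird1 for Pde4d (0.90), Prkar2b for Pde4b (0.77), Krt84, a hair keratin, for Pde8a (0.94), Arhgap31 for Pde4a (0.80), Tram1 for Pde7a (0.79) and Mdh2 for Pde3b (0.85). Prkar2b encodes a regulatory subunit of protein kinase A. These values describe the libraries and are not tests.

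Of the 6 other cyclases, only Adcy1, a calcium-stimulated enzyme, passed the filter in all 3 models. It stood at 4.09 ± 1.25 CPM (SD, n = 3) in SmoM2 Con and 6.5 ± 0.62 CPM (SD, n = 4) in BCC, and rose (log2 fold change 0.68, SE 0.21, edgeR adjusted p = 0.0377). In PKI it fell, from 3.88 ± 1.74 to 1.8 ± 0.197 CPM (-1.09, SE 0.34, edgeR adjusted p = 0.0329). The difference of these effects passed the test (-1.77, SE 0.41, edgeR adjusted p = 0.00621), as did that between PKI and Gnas-eKO (-1.88, SE 0.52, edgeR adjusted p = 0.0386). The PKI groups overlapped, unlike those of Adcy6, at 1.93 to 5.29 CPM in Con and 1.55 to 2.03 CPM in BCC. In Gnas-eKO, Adcy1 stood at 4.03 ± 0.357 CPM in Con and 6.9 ± 3.13 CPM in BCC (log2 fold change 0.79, not called). Fits with a library left out are not given for the Adcy1 differences. Of 10 other phosphodiesterases that hydrolyse cAMP, 3 were tested in SmoM2. The calmodulin-activated Pde1c rose there (1.16, SE 0.31, adjusted p = 0.02). In PKI it held 19 to 26 counts in Con libraries and 3 to 8 in BCC, and passed the filter only through Con, so neither its PKI call (-2.32, SE 0.39, adjusted p = 0.00231) nor the difference of effects (-3.48, SE 0.48, adjusted p = 0.000195) is given as support for a fall. Pde11a stood at 0.0459 to 0.0574 CPM in SmoM2 Con, below the value of 3 counts, and at 0.504 to 2.31 CPM in BCC; it passed the filter only through BCC, so its call (adjusted p = 0.00423) is no support for a rise of the group. The same holds for the cGMP-specific Pde9a in SmoM2, with 8 to 11 counts in Con and 41 to 74 in BCC (2.46, SE 0.33, adjusted p = 0.000471). Pde3a, of the cGMP-inhibited family, was called for PKI against Gnas-eKO alone (-4.73, SE 0.79, adjusted p = 0.00411), with mean levels of 0.545 and 0.175 CPM in PKI Con and BCC and of 0.14 and 1.26 CPM in Gnas-eKO, and passed the filter in Gnas-eKO only through BCC (1 to 4 counts in Con, 11 to 44 in BCC) and not at all in PKI, so this call is no support for a difference.

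Upstream of the cyclases, 3 of 7 G protein alpha subunits were higher and 2 lower in SmoM2 (16.2% and 13.5% of all genes), and 2 higher and 1 lower of 6 tested in PKI (18.7% and 15.8% of all genes). Gnas rose by 0.68 (SE 0.06) in SmoM2 and by 0.25 (SE 0.08) in PKI. The inhibitory subunits split: Gnai2 rose by 0.36 in SmoM2 and 0.52 in PKI, Gnai1 fell by 0.40 and 0.45, and Gnai3 fell by 0.29 in SmoM2. Gnao1, a subunit best known from neurons, rose by 3.34 (SE 0.25) in SmoM2. Between models, the Gnas effect was lower in Gnas-eKO than in SmoM2 (-1.78) and PKI (difference 1.36). Gnas is the gene that the Gnas-eKO model is named for, so this outcome was set by the design and is no pathway result. The Gnas effect was also lower in PKI than in SmoM2 (-0.42). For PKI against SmoM2, Gnai3 differed by 0.33 and Gnao1 by -3.56. Each of these differences was past the threshold. Of 12 cAMP-coupled receptors of skin, 8 were tested in each model, and the prostaglandin E2 receptor Ptger4 was higher in all 3 (1.23 in SmoM2, 1.92 in Gnas-eKO with adjusted p = 0.0483, 1.35 in PKI). The Gnas-eKO call of Ptger4 was kept without BCC replicate 2 (2.10, adjusted p = 0.00853) and lost with any of the other 6 libraries left out (adjusted p up to 0.218). In SmoM2 3 receptors were higher and 1 lower (16.2% and 13.5% of all genes). In PKI 1 was higher and 2 lower (18.7% and 15.8% of all genes), the beta-adrenergic receptor Adrb1 falling by 2.35 (SE 0.44).

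Downstream, 3 of 8 protein kinase A subunits and inhibitors tested in SmoM2 were higher and 1 lower, and 3 of 9 were higher and 1 lower in PKI, beside 29.7% and 34.5% of all genes called in either direction. By the test of the difference, 4 of 9 had a lower effect in PKI than in SmoM2 and 0 a higher one by edgeR, against 12.3% and 12.6% of all genes; the median difference over the 9 was 0.05, and 1 of the 4 is Prkar1b, whose SmoM2 counts are limited as given next. The regulatory subunit Prkar1b rose by 1.02 (SE 0.33) in PKI. In SmoM2 it passed the filter only through BCC, with 9 to 23 counts in Con and 123 to 168 in BCC (3.20, SE 0.26), as did the inhibitor Pkib in PKI, with 5 to 13 and 25 to 46 counts (1.86, SE 0.40), so these 2 calls are no support for a rise. Of 4 other cAMP effectors tested, 1 was higher and 2 lower in SmoM2, and 3 were lower in PKI. Beside this list and the next ones stand 16.2% of all genes higher and 13.5% lower in SmoM2, and 18.7% and 15.8% in PKI. Popdc3 and the cAMP-activated exchange factor Rapgef3 fell in both, Popdc3 by 1.69 and 1.00 and Rapgef3 by 1.16 and 2.74. The gene that was higher in SmoM2 is the exchange factor Rapgef4, named after its values were seen, at means of 23.2 and 33.9 CPM (log2 fold change 0.56); in PKI it was lower, at 19.5 and 10.9 CPM (-0.82). Of 8 CREB family members and coactivators, 2 were higher in SmoM2 and 1 was higher and 1 lower in PKI, with Crtc3 up in both (0.61 and 0.42). Of the A-kinase anchoring proteins 0 of 9 were called in SmoM2 by edgeR and 1 of 10 in PKI, Akap7, which fell by 0.92. In Gnas-eKO, Ptger4 was the only called gene of all these lists with all libraries, against 1.63% of all genes. Without BCC replicate 2, 6 were higher and 4 lower of 51 tested, against 11.8% of all genes.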

How the data were processed

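Per the submitters' processing notes, bcl2fastq 2.20, cutadapt 1.18, STAR 2.7.0f and Partek were used with build mm10, and per the labels' protocols the libraries were stranded polyA mRNA preparations. The count table holds estimated counts per gene that the authors deposited without normalization (32.3% of values lie over 1e-6 from a whole number); no gene has under 10 counts in all. The second deposited table holds a normalized signal. How reads were assigned to genes, and whether strand was used, is not given in the sources used here.

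Counts were rounded and tested within each model (7 libraries) with edgeR 4.0.16 in R 4.3.3 (filterByExpr, TMM, robust quasi-likelihood test, Benjamini-Hochberg over all genes tested, called under 0.05). Standard errors are the log2 fold change over the square root of F. Differences of effects were tested as contrasts on 14 libraries. CPM uses TMM-scaled sizes over all 21 libraries; exon lengths are unions from GENCODE M21, whose gene ends lie 1 base before the deposited ones. Scripts were tested on simulated data. Alternatives were DESeq2 1.42.0, DESeq2's size factors, no filter, a replicate block, a joint fit, limma 3.58.1 on log2 (deposited normalized signal + 1), and leaving out each library. All 10 members are named; of the other pathway lists, called cyclases, phosphodiesterases acting on cAMP and G proteins are named, and elsewhere at most the 2 largest called changes per model, plus Rapgef4, added after its values were seen. The members and lists were chosen with earlier results of these data known. Libraries of a group differed beyond sampling noise (lowest chi-square per degree of freedom 8.33), and each counts as a replicate. Floors of 3 counts cover counting error only.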

Additional observations from a re-analysis of the deposited data

Results flagged for a closer look

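The Adcy6 effect differed between models by the test of the difference itself: PKI against SmoM2 at a log2 difference of -1.19 and PKI against Gnas-eKO at -1.30, with 4 of 4 PKI BCC libraries below all PKI Con libraries. The Pde4b effect also differed between PKI and SmoM2, at -0.78. That call was lost in 9 of the 14 fits that leave out 1 library and in the joint edgeR fit (adjusted p = 0.158). Adcy9 in Gnas-eKO BCC had a single low library, replicate 3 at 11.8 CPM, whose gap to the nearest of the other 3 exceeded Dixon's critical share of the group's range. Chance marks about 1 in 20 groups, and 30 groups of 4 libraries were looked at.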

How the results depend on the processing

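The Adcy6 calls in PKI and in both PKI differences, and the Adcy7 and Adcy9 calls in PKI, held in all 6 alternatives and every fit that left out 1 library. Fitting all 21 libraries jointly left 1 member called in SmoM2 (Pde4d), 1 in Gnas-eKO (Adcy7) and 1 for PKI against SmoM2 (Adcy6), and called 2644 genes in Gnas-eKO and 66 for Gnas-eKO against SmoM2. DESeq2 called 1535 genes and 1 member in Gnas-eKO, 212 genes for Gnas-eKO against SmoM2 and 2389 for PKI against Gnas-eKO; the main counts were 267, 30 and 1564. The cause was not tested. In PKI, Pde4d missed the threshold with no filter (adjusted p = 0.0526) and in the joint fit (0.141), and Pde8a in the joint fit (0.249) and with limma (0.062), while Pde3b passed in the joint fit (0.0356).

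Same-numbered libraries share only a number: correlations of their deviations were -0.13 to -0.09 in SmoM2, 0.04 to 0.18 in Gnas-eKO and -0.07 to 0.28 in PKI. With the replicate block, 135 genes were called in Gnas-eKO and 925 for PKI against Gnas-eKO, Pde8a in SmoM2 (-0.44, adjusted p = 0.151) and Pde4d in PKI (0.77, 0.0637) were not called, Pde3b in PKI was (1.89, 0.016), and Pde4a for PKI against Gnas-eKO turned to 0.12.

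With 1 library left out, called genes ranged from 3613 to 4627 in SmoM2, 0 to 1910 in Gnas-eKO (the latter without BCC replicate 2, and 0 without Con replicate 1 or 2), 4057 to 5466 in PKI, 14 to 79 for Gnas-eKO against SmoM2, 3401 to 4429 for PKI against SmoM2 and 673 to 2512 for PKI against Gnas-eKO. Members called ranged from 3 to 5 in SmoM2, 0 to 3 in Gnas-eKO, 3 to 5 in PKI, 1 to 2 for PKI against SmoM2 and 1 to 2 for PKI against Gnas-eKO, where Adcy9 was added without Gnas-eKO BCC replicate 3 (adjusted p = 0.0266). Pde4d for PKI against SmoM2 was called without SmoM2 Con replicate 1 (adjusted p = 0.0207). Signs turned only among uncalled values: Pde7a in Gnas-eKO (-0.10 to 0.11) and for Gnas-eKO against SmoM2 (-0.03 to 0.18), Pde4a for Gnas-eKO against SmoM2 (-0.34 to 0.12), Pde3b (-0.30 to 0.44) and Pde8a (-0.11 to 0.26) for PKI against SmoM2, and Pde4b (-0.11 to 0.44) and Pde4d (-0.20 to 0.46) for PKI against Gnas-eKO. Pde3b in PKI passed the filter in 4 of these 7 fits.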
